A study of Homo sapiens with 6 samples.

Results

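The cytosolic and mitochondrial heat shock chaperones were examined in 2 human osteosarcoma lines, KHOS and U-2OS, that received an expression vector for the microRNA miR-1. The set comprised 42 gene symbols: the HSP70 and HSP110 proteins, their HSP40 (J-domain) and BAG partners, HSP90 with its co-chaperones, the mitochondrial HSP60 and HSP10, the small heat shock proteins and the heat shock factors HSF1 and HSF2. Members were found as probe sets that the array annotation maps to one of these symbols. Of the 42, 37 had a probe set that maps to 1 symbol alone, and 34 of these passed a filter on low values, among 12958 genes tested in all.

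Each line had 3 conditions with 1 array each: cells with the miR-1 vector (pEP-miR-1), cells with the empty vector (pEP-miR-Null) and control cells, for which the labels name no vector. Transfection of both vectors used Lipofectamine LTX with its Plus Reagent and lasted 48 hours; the sources used here do not say whether control cells also received the reagent. KHOS cells derive from the HOS osteosarcoma line through transformation by Kirsten sarcoma virus, while U-2OS cells come from a different osteosarcoma. RNA from 3 flasks was pooled for every array, so no spread between cultures was measured, and a difference within a line is a comparison of 1 array with 1 other that has no test. Mature miR-1 was not analysed here, so the labels of the vector arrays were not checked against it.

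Chaperones bind proteins that are unfolded or newly made and keep them from aggregating. HSP70 proteins cycle between ATP and ADP states, driven by HSP40 proteins that deliver substrates and by BAG and HSP110 proteins that exchange the nucleotide, and they hand some clients on to HSP90. Most cells keep constitutive forms such as HSPA8 and HSP90AB1 at high levels. When damaged proteins accumulate, the transcription factor HSF1 is released from chaperones, forms trimers and binds inverted repeats of GAA and TTC (heat shock elements) in the promoters of inducible forms such as HSPA6, HSPA1A and DNAJB1.

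The mature miR-1 carried by the vector is shown because its seed, bases 2 to 8, printed in capitals, is what pairs with target transcripts. The sequence is from RefSeq (GRCh38.p14) and is the same for both genomic copies, MIR1-2 at chr18:21829015-21829036 on the minus strand and MIR1-1 at chr20:62554351-62554372 on the plus strand.
hsa-miR-1-3p: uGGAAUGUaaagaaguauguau

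Values are log2 expression, so a difference of 1 is a 2-fold difference. A gene is represented by its probe set of highest mean among those mapped to it alone, and levels of different probe sets are not compared. The members held 84 probe sets with 1 symbol, 74 of them at or above the filter of 5.11. HSPB3, HSPB6 and HSPB7, 3 small heat shock proteins of muscle, lay below it. HSPA2 and HSPA4L passed through the KHOS arrays alone: HSPA2 averaged 9.82 in KHOS against 3.79 in U-2OS, and HSPA4L averaged 9.10 against 4.16. HSPA1A, HSPA1B and HSPA8 occurred only in probe sets that carry several symbols, which were kept apart and are called by their probe set and its symbols. AHSA1 and HSF2 had no probe set in the annotation used and were not analysed here.

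Hybridisation controls and RNA signals moved with the groups. The mean of the hybridisation spike-ins was 9.93, 10.13 and 9.76 on the KHOS miR-1, miR-null and control arrays, against 11.65, 11.33 and 10.81 for U-2OS. A probe set for 28S ribosomal RNA read 14.49 with miR-1, 14.07 with miR-null and 13.68 in control cells of KHOS, and 14.86, 14.58 and 13.79 in those of U-2OS. The difference between the 3′ and 5′ actin probe sets was 2.90, 2.89 and 2.68 on the KHOS miR-1, miR-null and control arrays. For U-2OS it was 2.49, 2.64 and 2.40. The interquartile range of an array's values was 3.36, 3.32 and 3.24 for KHOS and 2.75, 2.84 and 3.07 for U-2OS. The deposited arrays thus did not share 1 distribution. The part of these differences in the results below was not tested. The mesenchymal marker VIM lay between 13.15 and 14.30 on the 6 arrays and SPARC between 10.64 and 12.07, 4 of 6 mesenchymal markers passed the filter, and the osteoblast enzyme ALPL and the collagen gene COL1A2 lay below it in both lines. RUNX2, the osteoblast transcription factor, read 8.98 to 9.85 in KHOS and 4.23 to 6.74 in U-2OS. Of the other cell types, 2 of 4 epithelial, 2 of 4 blood and 1 of 4 endothelial markers passed the filter. The list means were 5.46 to 5.59 in KHOS against 4.93 to 5.26 in U-2OS for epithelial, 4.98 to 5.13 against 5.08 to 5.21 for blood and 4.35 to 4.55 against 4.70 to 4.91 for endothelial markers. The leukocyte marker PTPRC stayed between 3.53 and 3.75 and the endothelial marker CDH5 between 3.59 and 3.89, while the epithelial marker EPCAM read 8.43 to 8.70 in KHOS and 5.49 to 5.96 in U-2OS.

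The first comparison asks what miR-1 adds to the empty vector. With miR-1, KHOS cells had higher values than with miR-null for most chaperones, led by HSPA6 (5.89-fold), DNAJB1 (2.99-fold) and BAG3 (2.05-fold). In U-2OS the same genes differed by at most 0.10 log2 units on their representative probe sets. Second probe sets differed there by 0.18 for HSPA6 and −0.24 for DNAJB1. Of the 34 members, 29 were higher with miR-1 than with miR-null in KHOS, where 39.9% of all genes were, and 11 were higher in U-2OS, where 41.3% of all genes were. The median member difference was 0.20 in KHOS, against −0.05 over all genes, and −0.06 in U-2OS, against −0.05 over all genes. No member and no gene passed the test over both lines. In bulk RNA, fewer cells that express a gene and less RNA per cell cannot be told apart.

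**Figure D1:**
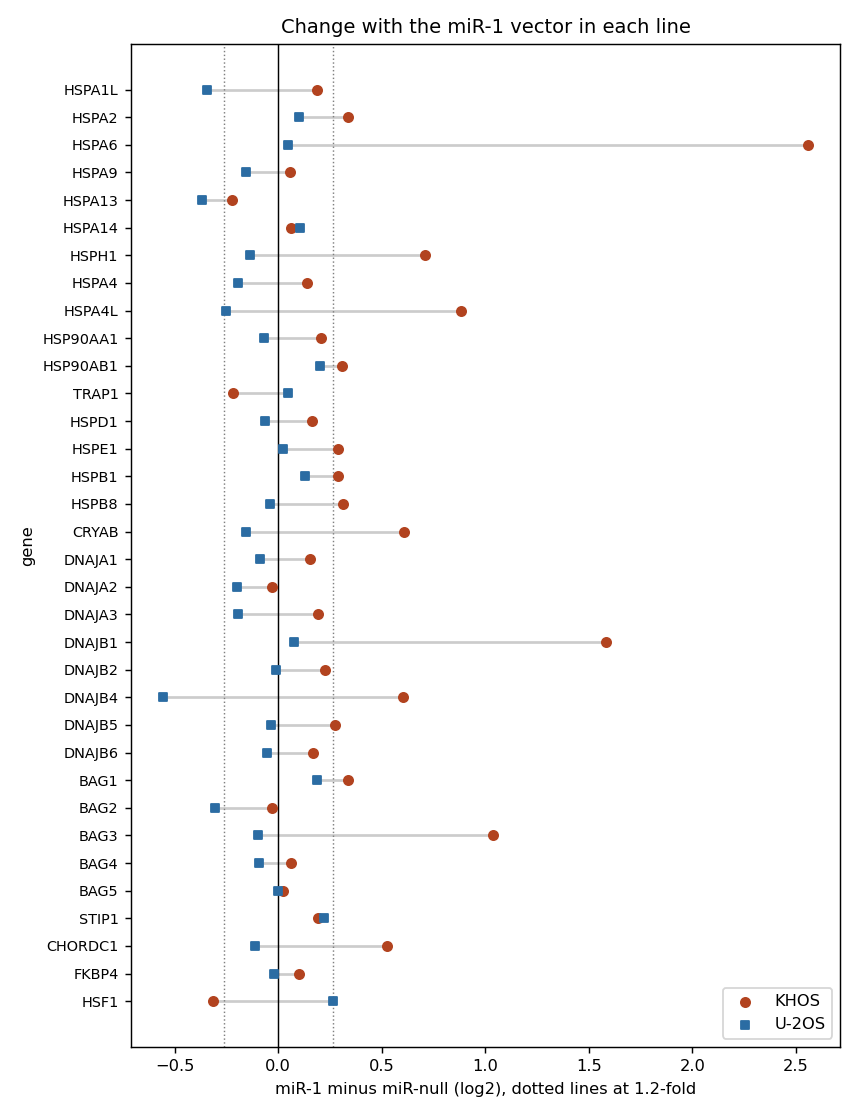
miR-1 minus miR-null difference (log2) for each of the 34 chaperone genes, with KHOS and U-2OS as separate points, grouped by class. Each point is 1 array minus 1 array, with no error bar; the KHOS points of HSPA6, DNAJB1 and BAG3 lie at 2.56, 1.58 and 1.04, and their U-2OS points at 0.05, 0.07 and −0.10.

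Among the HSP70 proteins, HSPA6, a strictly inducible form, read 12.71 with miR-1, 10.15 with miR-null and 8.34 in control cells of KHOS, and 13.22, 13.17 and 11.55 in those of U-2OS. A second HSPA6 probe set, 117_at, read 11.57 with miR-1, 8.93 with miR-null and 7.18 in control cells of KHOS, and 12.26, 12.08 and 10.29 in those of U-2OS. On both probe sets the KHOS arrays stepped upward in the order control, miR-null, miR-1, and U-2OS had nearly equal values with miR-1 and with miR-null, both above control. The KHOS miR-1 minus miR-null difference was 2.56 on the first and 2.64 on the second, and the U-2OS difference was 0.05 and 0.18.

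The inducible HSP70 pair HSPA1A and HSPA1B, which encode nearly identical proteins, share their probe sets. Probe set 202581_at, annotated to both, read 13.04 with miR-1, 11.78 with miR-null and 11.78 in control cells of KHOS, and 13.73, 13.88 and 13.30 in those of U-2OS. Probe set 200799_at, with the same symbols, read 14.15 with miR-1, 13.33 with miR-null and 13.30 in control cells of KHOS, and 14.59, 14.65 and 14.36 in those of U-2OS. Probe set 200800_s_at, which the annotation also gives to HSPA1L, read 14.35 with miR-1, 12.98 with miR-null and 12.94 in control cells of KHOS, and 14.59, 14.63 and 14.48 in those of U-2OS. All 3 were higher with miR-1 in KHOS, by 1.26, 0.83 and 1.37, and had U-2OS differences of −0.15, −0.06 and −0.04. The probe sets do not tell HSPA1A and HSPA1B apart.

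The constitutive HSP70 differed less. Probe set 221891_x_at, annotated to HSPA8 and small nucleolar RNA genes within it, read 14.45 with miR-1, 14.30 with miR-null and 14.30 in control cells of KHOS, and 14.19, 14.29 and 14.32 in those of U-2OS. The 4 probe sets of this annotation had KHOS miR-1 minus miR-null differences of 0.15 to 0.25, and U-2OS differences of −0.16 to −0.08. The other HSP70 members measured alone were HSPA2, a form best known from testis, HSPA9, the mitochondrial HSP70, HSPA13, a microsome-associated form, HSPA14, a ribosome-associated form, and HSPA1L. Their KHOS differences were 0.34, 0.06, −0.22, 0.06 and 0.19, in that order, and their U-2OS differences were 0.10, −0.16, −0.37, 0.10 and −0.35.

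Among the nucleotide exchange partners of HSP70, BAG3, HSPH1 and HSPA4L had KHOS differences of 1.04, 0.71 and 0.88, while the 5 BAG genes had a median of 0.06. BAG3, which couples HSP70 to autophagy, read 12.71 with miR-1, 11.67 with miR-null and 11.80 in control cells of KHOS, and 12.84, 12.94 and 12.48 in those of U-2OS. HSPH1, an HSP110 protein, read 12.73 with miR-1, 12.02 with miR-null and 12.05 in control cells of KHOS, and 12.89, 13.03 and 12.91 in those of U-2OS. The KHOS miR-1 array was above the KHOS miR-null and control arrays for both genes, and close to the U-2OS arrays. HSPA4L, an HSP110 protein abundant in testis, read 9.62 with miR-1, 8.73 with miR-null and 8.96 in control cells of KHOS, and 4.01, 4.26 and 4.21 in those of U-2OS, and its U-2OS values lay under the filter. For HSPA4, the third HSP110 protein, the differences were 0.14 in KHOS and −0.20 in U-2OS. The other BAG genes had KHOS differences of 0.34 for BAG1, −0.03 for BAG2, 0.06 for BAG4 and 0.02 for BAG5, and U-2OS differences of 0.18, −0.31, −0.09 and 0.00 in the same order.

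Of the J-domain proteins, DNAJB1, the main inducible HSP40 of the cytosol, read 11.88 with miR-1, 10.29 with miR-null and 10.23 in control cells of KHOS, and 13.12, 13.04 and 12.56 in those of U-2OS. Its KHOS miR-1 value stood apart from the KHOS miR-null and control values, which lay within 0.06 of each other. A second DNAJB1 probe set, 200664_s_at, had miR-1 minus miR-null differences of 1.29 in KHOS and −0.24 in U-2OS. DNAJB4, a related HSP40, read 9.51 with miR-1, 8.90 with miR-null and 8.25 in control cells of KHOS, and 8.68, 9.23 and 9.04 in those of U-2OS. The miR-1 minus miR-null differences of DNAJB4 ran opposite ways, 0.60 in KHOS and −0.55 in U-2OS. The remaining J-domain members, DNAJA1, DNAJA2, DNAJA3, DNAJB2, DNAJB5 and DNAJB6, had KHOS differences of 0.15, −0.03, 0.19, 0.23, 0.27 and 0.17, in that order. Their U-2OS differences were −0.09, −0.20, −0.19, −0.01, −0.04 and −0.05.

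The HSP90 genes and the mitochondrial chaperonin had KHOS differences of −0.22 to 0.31. HSP90AB1, the constitutive cytosolic HSP90, read 13.02 with miR-1, 12.71 with miR-null and 12.85 in control cells of KHOS, and 13.42, 13.21 and 13.42 in those of U-2OS. HSPD1, the mitochondrial HSP60, read 14.24 with miR-1, 14.08 with miR-null and 14.22 in control cells of KHOS, and 14.33, 14.39 and 14.40 in those of U-2OS. HSPE1, its HSP10 lid, read 12.77 with miR-1, 12.48 with miR-null and 12.96 in control cells of KHOS, and 13.30, 13.27 and 13.32 in those of U-2OS. HSP90AB1 was higher with miR-1 than with miR-null in both lines, by 0.31 and 0.20, but no higher than control in U-2OS. Its other probe sets, 214359_s_at and 1557910_at, differed by 0.36 and 0.11 in KHOS, and by −0.08 and 0.04 in U-2OS. HSPE1 was 0.29 higher with miR-1 in KHOS and still below its control value there. HSP90AA1, the inducible cytosolic HSP90, had differences of 0.21 (KHOS) and −0.07 (U-2OS), and TRAP1, the mitochondrial HSP90, of −0.22 and 0.05. Of the HSP90 co-chaperones, CHORDC1 had a KHOS difference of 0.52 and a U-2OS difference of −0.11. STIP1 and FKBP4 differed by 0.19 and 0.10 in KHOS, and by 0.22 and −0.02 in U-2OS.

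Among the small heat shock proteins, CRYAB had a miR-1 minus miR-null difference of 0.60 in KHOS, where its miR-1 value of 5.64 was still below its control value of 5.95, and of −0.16 in U-2OS. HSPB1 had 0.29 in KHOS and 0.13 in U-2OS, and HSPB8 had 0.31 and −0.04, against −0.29 and −0.01 on its second probe set.

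HSF1 itself read 7.95 with miR-1, 8.26 with miR-null and 7.89 in control cells of KHOS, and 8.88, 8.61 and 8.64 in those of U-2OS. It was the only member lower by more than 1.2-fold with miR-1 in KHOS, with a difference of −0.31, and the only one higher by that much in U-2OS, with 0.26. Its other probe set, 213756_s_at, ran the opposite way in both lines, at 0.07 in KHOS and −0.39 in U-2OS. Its transcript level is no measure of HSF1 activity, which is set largely on the protein.

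**Figure D2:**
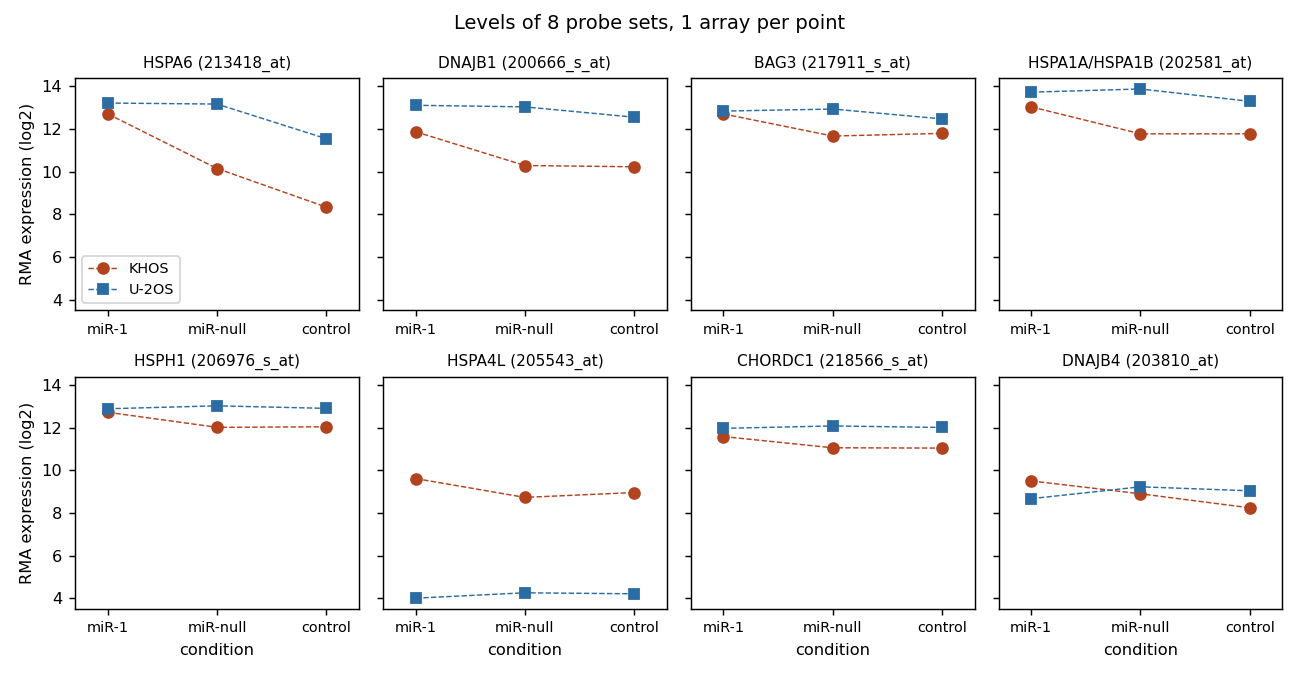
Log2 levels of 8 chaperone probe sets on the 6 arrays, KHOS and U-2OS side by side, each with miR-1, miR-null and control; the probe sets were chosen after their values were seen. Every point is 1 array of pooled RNA; the KHOS miR-1 point of HSPA6 is at 12.71, above the KHOS miR-null point at 10.15 and near the U-2OS points at 13.22 and 13.17.

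Counts past a fixed fold were taken next, 1.2-fold being the fold that the study's design text names. Past 1.2-fold, 15 members were higher with miR-1 in KHOS (44.1% of the members), against 7.39% of all genes, and 1 was lower, against 11.8% of all genes. With the median over all of a gene's probe sets as its value, 12 members were higher and 1 lower. The share of all genes was not counted for that setting. Past 2-fold, 3 members were higher (8.82%), against 0.162% of all genes, and none was lower, against 0.0386%. In U-2OS, 1 member was higher past 1.2-fold, against 11.8% of all genes, and BAG2, DNAJB4, HSPA13 and HSPA1L were lower, against 19.2% of all genes. None passed 2-fold in U-2OS, where 0.116% of all genes were higher and 0.17% were lower. In KHOS 20 of the 34 members were higher and in U-2OS lower, 9 were higher in both lines, 3 lower in both and 2 lower in KHOS and higher in U-2OS. Of the members, 58.8% were higher in KHOS and lower in U-2OS, against 24.9% of all genes, while 1943 of all 12958 genes were higher in both lines. Those lower in both made up 8.82% of members, against 33.8% of all genes, and those lower in KHOS and higher in U-2OS 5.88%, against 26.2%. Other probe sets of HSPA13 and HSPA1L ran opposite ways in U-2OS, at 0.08 and 0.14.

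The test over both lines fits the treatment and the line to all 6 arrays in limma, with Benjamini-Hochberg adjustment over all 12958 genes. Its error holds the difference between the lines in their response as well as array error, with 2 residual degrees of freedom before limma pools the spread over genes. No gene passed for miR-1 minus miR-null (0% higher and 0% lower), 78 genes and no member had an unadjusted p under 0.05, and the median member's 95% interval reached 0.45 to either side. The smallest member p belonged to DNAJB1, with 0.83 ± 0.35 (SE), adjusted p = 1 and an unadjusted p of 0.0531. HSPA6 had 1.30 ± 0.62 (SE), adjusted p = 1.

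Whether the miR-1 arrays stood apart more in one line was tested as an interaction, with each line's miR-null and control arrays pooled as the comparison, so that its error holds the difference between those arrays. No gene passed (0% in either direction), while 276 genes and 3 members had an unadjusted p under 0.05. The KHOS minus U-2OS difference in the distance of miR-1 from those arrays was 1.30 ± 0.39 (SE), adjusted p = 1 for DNAJB1 and 1.39 ± 0.46 (SE), adjusted p = 1 for DNAJB4; the third was HSPA4L, whose U-2OS values lay under the filter. For HSPA6 it was 2.60 ± 1.27 (SE), adjusted p = 1, with a 95% interval that included 0. In the fit over all probe sets, 200800_s_at had 1.35 ± 0.24 (SE), adjusted p = 0.915. No member passed, so a line difference was not shown at this number of arrays.

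Promoters of 4 members are printed to show where GAA and TTC repeats lie in inducible genes that differed in KHOS (HSPA6, DNAJB1, CHORDC1) and in the constitutive HSPA8. They are examples and not the members that differed most. With miR-1 in KHOS, BAG3 (1.04), HSPA4L (0.88) and HSPH1 (0.71) differed more than CHORDC1 (0.52). Each is a RefSeq GRCh38.p14 window of 250 bases before to 50 after an annotated start, 5′ to 3′ on the gene's strand. Where a gene had several annotated starts, the window with the most pairs of repeats, as defined next, is printed. The other DNAJB1 windows held 1 and 0 pairs. Capitals mark each pair of inverted repeats, GAANNTTC or TTCNNGAA; a run of 3 repeats, GAANNTTCNNGAA or TTCNNGAANNTTC, is a triplet and contains 2 overlapping pairs. These patterns cover both strands. The windows are HSPA6 at chr1:161524290-161524589 (plus), DNAJB1 at chr19:14518348-14518647 (minus), CHORDC1 at chr11:90223000-90223299 (minus) and HSPA8 at chr11:123062087-123062386 (minus).
HSPA6: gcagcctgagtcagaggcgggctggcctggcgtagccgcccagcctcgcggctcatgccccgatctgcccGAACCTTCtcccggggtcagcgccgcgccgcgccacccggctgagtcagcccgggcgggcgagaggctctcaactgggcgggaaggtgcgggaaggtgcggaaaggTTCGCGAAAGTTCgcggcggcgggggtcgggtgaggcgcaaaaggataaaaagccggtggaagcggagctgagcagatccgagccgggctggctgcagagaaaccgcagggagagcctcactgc
DNAJB1: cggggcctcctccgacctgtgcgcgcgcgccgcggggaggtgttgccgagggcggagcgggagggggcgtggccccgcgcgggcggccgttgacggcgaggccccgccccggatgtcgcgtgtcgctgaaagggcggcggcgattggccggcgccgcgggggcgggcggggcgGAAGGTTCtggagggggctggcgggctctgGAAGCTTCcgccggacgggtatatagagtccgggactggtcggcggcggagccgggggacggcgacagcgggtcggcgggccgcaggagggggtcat
CHORDC1: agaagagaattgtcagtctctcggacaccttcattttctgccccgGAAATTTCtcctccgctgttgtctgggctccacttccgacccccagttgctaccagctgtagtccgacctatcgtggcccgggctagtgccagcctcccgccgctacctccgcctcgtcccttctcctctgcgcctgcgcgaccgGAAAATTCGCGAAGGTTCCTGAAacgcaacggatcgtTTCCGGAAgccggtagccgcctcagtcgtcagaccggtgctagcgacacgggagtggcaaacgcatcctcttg
HSPA8: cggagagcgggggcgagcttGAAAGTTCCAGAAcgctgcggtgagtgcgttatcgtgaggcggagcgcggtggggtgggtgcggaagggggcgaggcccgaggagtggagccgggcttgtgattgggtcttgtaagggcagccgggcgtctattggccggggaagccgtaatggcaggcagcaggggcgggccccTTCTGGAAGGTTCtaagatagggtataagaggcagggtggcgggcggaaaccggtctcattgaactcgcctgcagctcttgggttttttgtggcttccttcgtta

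HSPA6 held 1 triplet at −74 to −62 from the start and a further pair at −180 to −173. The printed DNAJB1 window held no triplet and 2 separate pairs, at −77 to −70 and −47 to −40. CHORDC1 held 3 overlapping triplets between −60 and −38, and HSPA8 held 2, at −230 to −218 and −55 to −43. Windows were found for 37 members, with none for BAG4, CRYAB, FKBP4, HSF1 and HSPA14. A gene with several windows was counted if any of them held the pattern. A triplet occurred in 8 of the 37 (21.6%: CHORDC1, DNAJA1, DNAJB6, HSP90AA1, HSP90AB1, HSPA6, HSPA8 and HSPD1), against 166 of 27305 genes (0.608%), and a pair in 21 (56.8%), against 16.2% of all genes. Counted by window, a triplet occurred in 16.0% of the members' 50 windows, against 0.49% of all windows. Members with a triplet included HSPA6, which differed by 2.56 with miR-1 in KHOS, and HSPD1, which differed by 0.16. The windows of BAG3 and HSPH1 held neither pattern, which says only that these letters are not in those windows.

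The second comparison sets the vectors against control cells. HSPA6 was higher with miR-null than in control cells in both lines, by 1.81 in KHOS and 1.62 in U-2OS, and was the only member past 2-fold. Of all genes, 2.37% were higher past 2-fold in KHOS and 0.996% in U-2OS, and 0.208% and 2.95% were lower. For the mean of both vector arrays it was again HSPA6 alone, against 2.46% of all genes higher and 0.185% lower in KHOS, and 0.911% higher and 3.84% lower in U-2OS. HSPB8, a small heat shock protein that works with BAG3, read 5.67 with miR-1, 5.36 with miR-null and 4.56 in control cells of KHOS, and 10.96, 11.00 and 10.29 in those of U-2OS. It was higher with miR-null by 0.79 in KHOS and 0.71 in U-2OS. In KHOS its levels were close to the filter. A second HSPB8 probe set, 233057_at, differed by only 0.10 in KHOS and 0.06 in U-2OS.

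Other members differed with miR-null mainly in one line. DNAJB2, a J-domain protein best known from neurons, was 0.83 higher in KHOS and 0.22 higher in U-2OS, BAG1 0.75 and 0.01, and DNAJB4 0.66 and 0.19. DNAJB1 and BAG3 differed by 0.06 and −0.13 in KHOS, against 0.48 and 0.46 in U-2OS. CRYAB, the small heat shock protein alpha B-crystallin, had a difference of −0.91 in KHOS and of 0.28 in U-2OS. DNAJB6 and TRAP1 had the lowest U-2OS differences, −0.62 and −0.51.

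**Figure D3:**
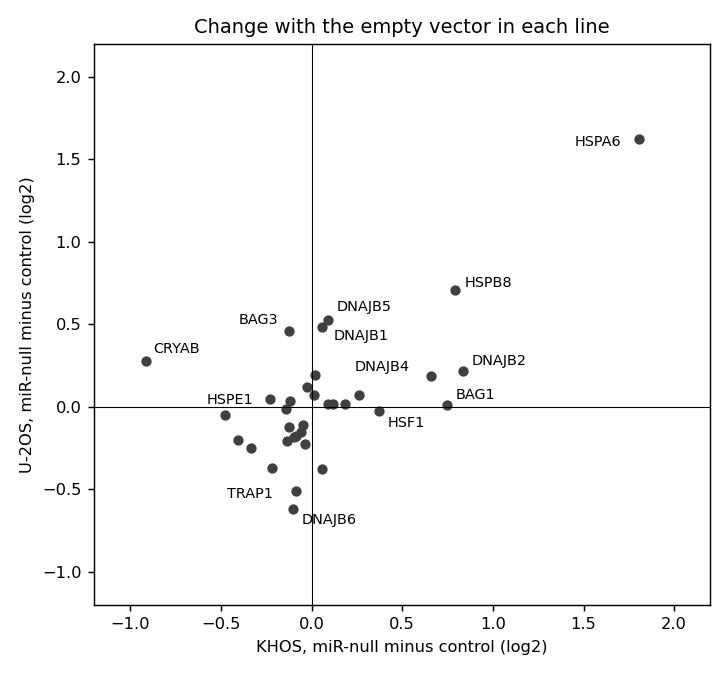
miR-null minus control difference (log2) of the 34 chaperone genes, KHOS on the horizontal and U-2OS on the vertical axis. Each point is 1 gene; HSPA6 lies alone at 1.81 and 1.62, HSPB8 at 0.79 and 0.71, and most other genes within 0.5 of 0 in both lines.

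With miR-null, 6 members were higher past 1.2-fold in KHOS and 4 lower (21.7% and 14.2% of all genes), and 6 were higher and 4 lower in U-2OS (18.9% and 33% of all genes). For the mean of both vector arrays against control, the counts were 9 higher and 3 lower in KHOS (20.1% and 15.9% of all genes), and 5 higher and 5 lower in U-2OS (18.9% and 35.5% of all genes). The members' shares, 17.6% and 11.8% with miR-null in each line, were near or under those of all genes.

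In limma no gene passed for miR-null minus control (0% in either direction), and 1263 genes and 2 members had an unadjusted p under 0.05. These were HSPB8, with 0.75 ± 0.19 (SE), adjusted p = 0.367, and HSPA6, with 1.72 ± 0.62 (SE), adjusted p = 0.469. For both vectors against control, 3 genes passed, all higher (0.0232%; 0% lower), and no member did. HSPB8 had 0.82 ± 0.16 (SE), adjusted p = 0.155, HSPA6 2.37 ± 0.54 (SE), adjusted p = 0.158 and DNAJB2 0.58 ± 0.21 (SE), adjusted p = 0.27. These 3 of the 34 members had an unadjusted p under 0.05, as did 2006 of the 12958 genes. The calls depended on which arrays entered. With only the miR-null and control arrays, 0.1% of all genes passed upward for miR-null minus control and 0% downward. HSPA6 passed for miR-null minus control when only the miR-null and control arrays were fitted (adjusted p = 0.0422), and 3 members passed without the U-2OS control array, HSPA6, HSPB8 and DNAJB2, all higher, where 3.53% of all genes passed upward and 0.463% downward. For both vectors against control, 4 members passed without the U-2OS control array, the same 3 and BAG1, all higher, where 4.68% of all genes passed upward and 0.887% downward. Without the KHOS control array 3 passed, HSPA6, HSPB8 and, lower, DNAJB6, where 3.84% of all genes passed upward and 13.7% downward. In the same comparison HSPA6 alone passed without the KHOS miR-1, KHOS miR-null or U-2OS miR-1 array, and no member without the U-2OS miR-null array. Of all genes, 0.0772%, 0.27%, 0.286% and 0.232% passed upward in these fits, in that order, and 0%, 0.0617%, 0.00772% and 0.00772% downward. A line difference in the vector effect passed for 259 genes upward and 37 downward (2% and 0.286%), and for no member. An unadjusted p under 0.05 was found for 2895 of the 12958 genes and for 5 of the 34 members. The smallest adjusted value among the members was that of DNAJB2, with 0.73 ± 0.25 (SE), adjusted p = 0.14.

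The third comparison is between the lines, over 3 arrays each. KHOS cells had lower values than U-2OS cells for most chaperones that differed, with differences of over 5 log2 units for the small heat shock proteins CRYAB and HSPB8. Of the 34 members, 19 were lower in KHOS (55.9%), against 24.5% of all genes, and 6 were higher (17.6%), against 30.3% of all genes. The 6 include HSPA2 and HSPA4L, which entered the test through their KHOS values, so they had to differ and are given as levels only. Without them, 4 of 32 members were higher. After quantile normalization, 20 of the 34 members were lower and 6 higher, HSPA2 and HSPA4L included, against 32.3% and 24.0% of all genes. The 3 arrays of a line differ in treatment, so their spread is not that of repeated cultures. Without the KHOS or the U-2OS miR-null array, fits with the same line difference, 17 members passed, 6 higher and 11 lower. Of all genes, 21.1% passed higher and 13.4% lower there. The calls of HSP90AB1, HSPE1, DNAJA1, HSPH1, BAG2, HSPA1L, BAG3 and CHORDC1 were lost. Without either miR-1 array, 22 members passed, 6 higher and 16 lower, against 23.1% and 15.8% of all genes. The calls of HSP90AB1, HSPE1 and HSF1 were lost.

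**Figure D4:**
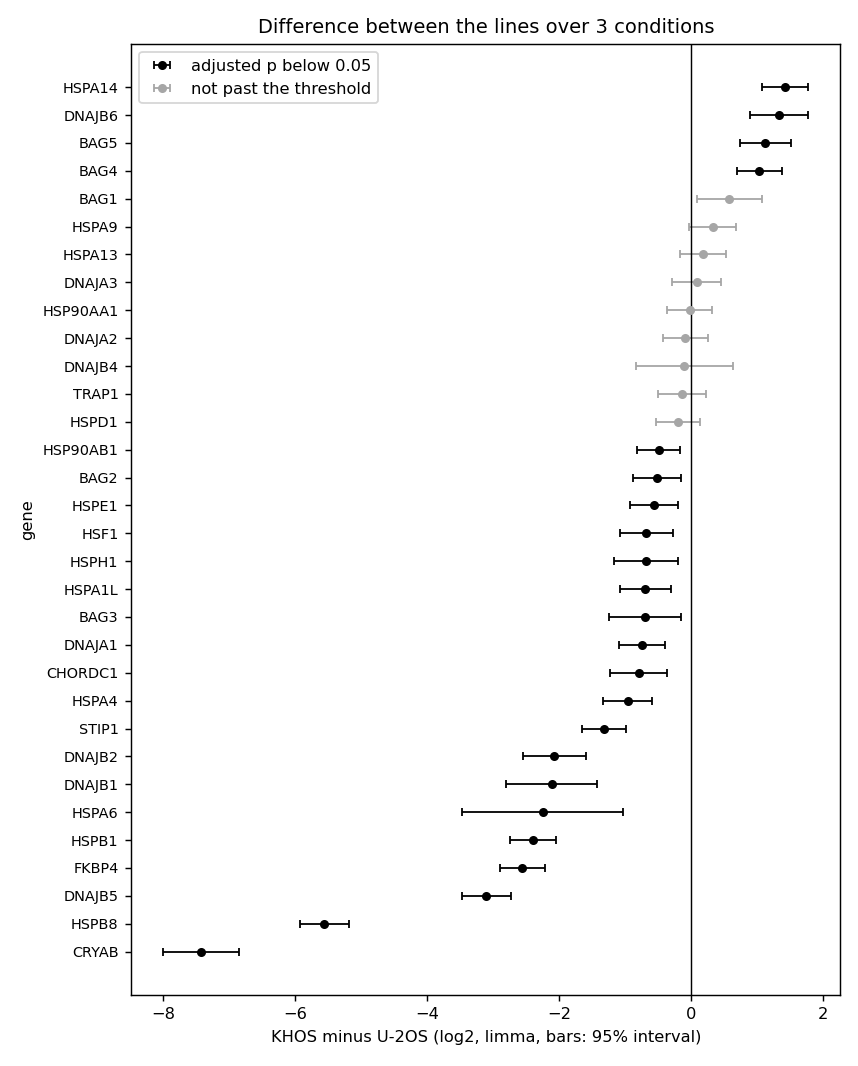
KHOS minus U-2OS difference (log2) of 32 chaperone genes from the fit over 6 arrays, with 95% intervals; HSPA2 and HSPA4L, under the filter in U-2OS, are left out. Genes that passed limma's adjusted threshold are drawn apart from those that did not; the values run from −7.42 for CRYAB to 1.43 for HSPA14.

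The 3 small heat shock proteins tested, a family that holds unfolded proteins without ATP, were lower in KHOS. CRYAB read 5.64 with miR-1, 5.04 with miR-null and 5.95 in control cells of KHOS, and 12.95, 13.11 and 12.83 in those of U-2OS, a difference of −7.42 ± 0.24 (SE), adjusted p = 7.13e-06. HSPB8, whose levels are given above, differed by −5.55 ± 0.15 (SE), adjusted p = 5.07e-06, and its second probe set by −1.41. HSPB1, the widely expressed HSP27, read 10.98 with miR-1, 10.69 with miR-null and 10.90 in control cells of KHOS, and 13.21, 13.08 and 13.45 in those of U-2OS, with −2.39 ± 0.14 (SE), adjusted p = 6.10e-05. No KHOS value of these 3 genes reached a U-2OS value, and CRYAB and HSPB8 were near the filter in KHOS.

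Among the HSP70 genes, HSPA14 was higher in KHOS, and HSPA6 and HSPA1L lower. HSPA2 read 10.03 with miR-1, 9.70 with miR-null and 9.74 in control cells of KHOS, and 3.79, 3.68 and 3.91 in those of U-2OS, with its U-2OS values all under the filter. HSPA14 read 10.45 with miR-1, 10.39 with miR-null and 10.80 in control cells of KHOS, and 9.12, 9.02 and 9.22 in those of U-2OS, with 1.43 ± 0.14 (SE), adjusted p = 0.000432. HSPA6 differed by −2.25 ± 0.51 (SE), adjusted p = 0.0107, although its KHOS miR-1 value of 12.71 was above the U-2OS control value of 11.55. HSPA1L, a testis form of HSP70, read 5.91 with miR-1, 5.72 with miR-null and 5.70 in control cells of KHOS, and 6.30, 6.64 and 6.45 in those of U-2OS, with −0.69 ± 0.16 (SE), adjusted p = 0.0125. In the fit over all probe sets, those annotated to HSPA1A and HSPA1B were also lower in KHOS, with −1.44 ± 0.25 (SE), adjusted p = 0.00565 for 202581_at, −0.94 ± 0.19 (SE), adjusted p = 0.00956 for 200799_at and −1.15 ± 0.27 (SE), adjusted p = 0.0191 for 200800_s_at. The 4 HSPA8 probe sets are not told apart from the small nucleolar RNA genes; 210338_s_at was higher in KHOS, with 0.52 ± 0.15 (SE), adjusted p = 0.0349, and the other 3 did not pass, at 0.08 to 0.33.

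Of the HSP110 genes, HSPA4L, whose levels are given above, was above the filter on the KHOS arrays and under it on the U-2OS arrays. HSPA4 read 12.01 with miR-1, 11.87 with miR-null and 11.93 in control cells of KHOS, and 12.71, 12.91 and 13.06 in those of U-2OS, with −0.95 ± 0.15 (SE), adjusted p = 0.00291, and HSPH1 differed by −0.68 ± 0.20 (SE), adjusted p = 0.0277. For HSPA4 and HSPH1 another probe set ran the opposite way: 208814_at, annotated to HSPA4, was 0.997 higher in KHOS, and 235573_at, annotated to HSPH1, was 1.49 higher.

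Of the 8 J-domain genes tested, 4 were lower in KHOS and 1 higher. DNAJB5, which is related to DNAJB1, read 6.11 with miR-1, 5.83 with miR-null and 5.74 in control cells of KHOS, and 9.15, 9.18 and 8.66 in those of U-2OS, with −3.10 ± 0.15 (SE), adjusted p = 2.74e-05. DNAJB1 differed by −2.11 ± 0.29 (SE), adjusted p = 0.00146, its KHOS values all below its U-2OS values. DNAJB2 read 6.95 with miR-1, 6.73 with miR-null and 5.89 in control cells of KHOS, and 8.66, 8.67 and 8.45 in those of U-2OS, with −2.07 ± 0.20 (SE), adjusted p = 0.000358. DNAJA1, a constitutive HSP40 of the cytosol, read 12.99 with miR-1, 12.84 with miR-null and 12.72 in control cells of KHOS, and 13.53, 13.62 and 13.60 in those of U-2OS, with −0.74 ± 0.15 (SE), adjusted p = 0.0066, and its second probe set was 0.35 higher in KHOS. DNAJB6, which suppresses aggregation of polyglutamine proteins, read 9.85 with miR-1, 9.68 with miR-null and 9.79 in control cells of KHOS, and 8.19, 8.25 and 8.87 in those of U-2OS, with 1.34 ± 0.18 (SE), adjusted p = 0.00149. DNAJB6 was the only J-domain gene that passed as higher in KHOS on its representative probe set. The probe sets annotated to DNAJB6 together with TMEM135 were 0.95 and 1.20 lower there.

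The BAG genes were divided. BAG5 read 10.31 with miR-1, 10.28 with miR-null and 10.22 in control cells of KHOS, and 9.02, 9.02 and 9.39 in those of U-2OS, with 1.13 ± 0.16 (SE), adjusted p = 0.00169. BAG4, a BAG protein that also binds TNF receptors, read 10.52 with miR-1, 10.46 with miR-null and 10.51 in control cells of KHOS, and 9.36, 9.45 and 9.56 in those of U-2OS, with 1.04 ± 0.14 (SE), adjusted p = 0.00143. Both were higher in KHOS. BAG2, an inhibitor of the ubiquitin ligase CHIP, was lower in KHOS: it read 10.39 with miR-1, 10.42 with miR-null and 10.52 in control cells of KHOS, and 10.69, 10.99 and 11.18 in those of U-2OS, with −0.51 ± 0.15 (SE), adjusted p = 0.0265, and its other probe sets ran the opposite way. BAG3 was lower in KHOS, with −0.69 ± 0.23 (SE), adjusted p = 0.0405, although its KHOS miR-1 value of 12.71 was above the U-2OS control value of 12.48. BAG1, with 0.58 ± 0.20 (SE), adjusted p = 0.0504, did not pass.

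The 3 HSP90 co-chaperones of the set that were tested were lower in KHOS. FKBP4, an immunophilin of steroid receptor complexes, read 8.91 with miR-1, 8.81 with miR-null and 8.89 in control cells of KHOS, and 11.35, 11.37 and 11.54 in those of U-2OS, with −2.55 ± 0.14 (SE), adjusted p = 4.03e-05. STIP1, the adaptor that links HSP70 to HSP90, read 9.47 with miR-1, 9.28 with miR-null and 9.62 in control cells of KHOS, and 10.84, 10.62 and 10.87 in those of U-2OS, with −1.32 ± 0.14 (SE), adjusted p = 0.00051. CHORDC1, an HSP90-binding protein, read 11.59 with miR-1, 11.06 with miR-null and 11.05 in control cells of KHOS, and 11.97, 12.08 and 12.01 in those of U-2OS, with −0.79 ± 0.18 (SE), adjusted p = 0.0104. The 3 genes had no overlap between the lines. In all, KHOS arrays lay below U-2OS arrays with no overlap for 18 members (52.9%), against 32.2% of all genes. They lay above them for 7 members (20.6%), against 32.7% of all genes. The 7 include HSPA2 and HSPA4L, which passed the filter through their KHOS values alone and so had to be higher there.

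Constitutive HSP90 and the mitochondrial chaperonin differed by under 1 log2 unit. HSP90AB1 had −0.49 ± 0.14 (SE), adjusted p = 0.0242 and HSPE1 −0.56 ± 0.15 (SE), adjusted p = 0.0213, both lower in KHOS. HSPD1, with −0.19 ± 0.14 (SE), adjusted p = 0.273, did not pass, nor did HSP90AA1, with −0.02 ± 0.14 (SE), adjusted p = 0.932. HSF1 was lower in KHOS, with −0.68 ± 0.17 (SE), adjusted p = 0.0147. Besides BAG1, HSPD1 and HSP90AA1, the members that did not pass were HSPA9, HSPA13, DNAJA2, DNAJA3, DNAJB4 and TRAP1. In the fit over all probe sets, some of these genes passed on another probe set. HSPA9 (200690_at) had 1.02 ± 0.21 (SE), adjusted p = 0.00986, and HSPA13 (202558_s_at) −0.78 ± 0.15 (SE), adjusted p = 0.00829. DNAJB4 (203811_s_at) had −0.98 ± 0.21 (SE), adjusted p = 0.0117, and the second probe set of DNAJA2 is given below.

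**Figure D5:**
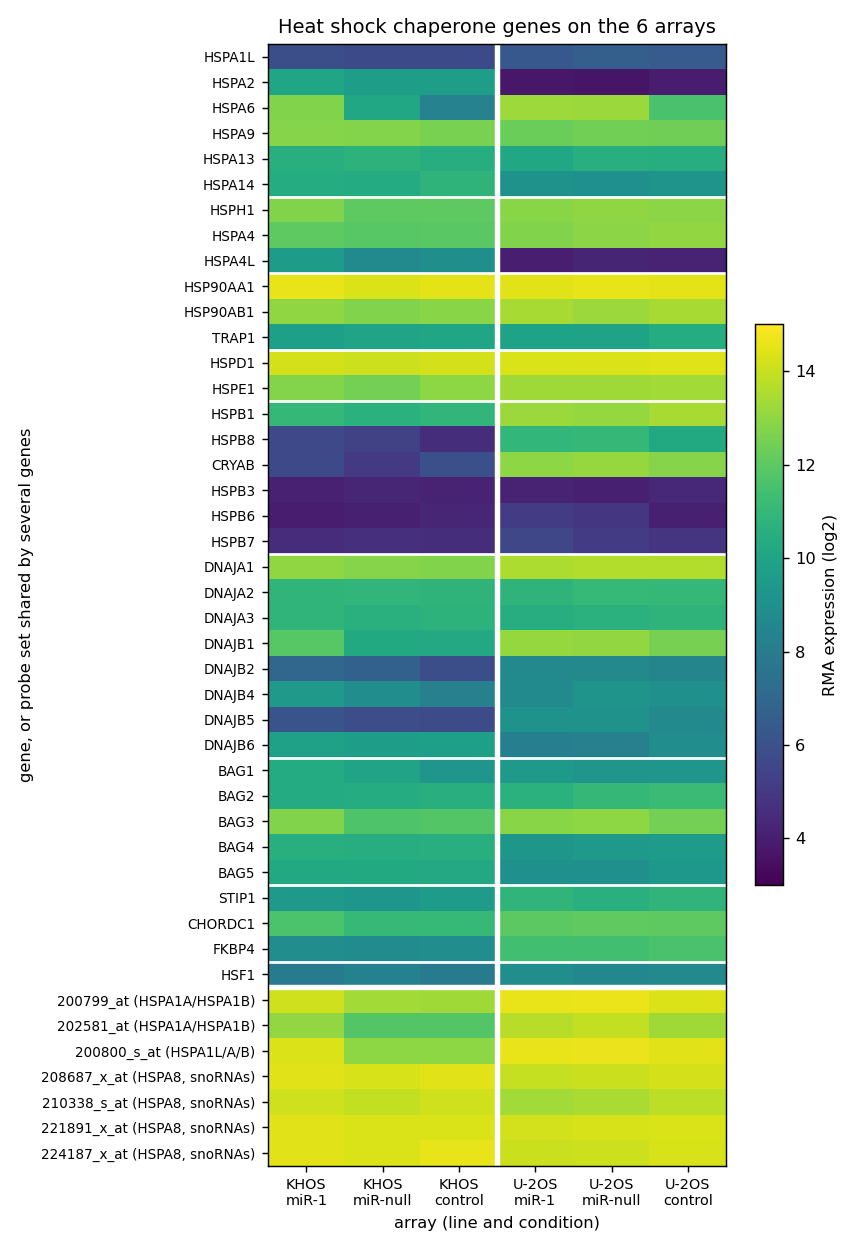
Log2 level, as colour, of the 37 chaperone genes at their representative probe sets and of 7 probe sets shared by several genes, on the 6 arrays, with KHOS left of U-2OS and miR-1, miR-null and control within each line. CRYAB and HSPB8 stand out as near the filter of 5.11 in KHOS alone, and HSPA2 and HSPA4L as below it in U-2OS alone; HSPB3, HSPB6 and HSPB7 are low in both lines.

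Probe sets of a gene did not always give one direction. Of 25 members with several probe sets at or above the filter, all of a gene's probe sets shared a sign for the KHOS miR-1 minus miR-null difference in 16, for the U-2OS difference in 13 and for the line difference in 17. HSPA6 shared its sign in KHOS on both probe sets. For DNAJA2 the second probe set, 226994_at, was higher in KHOS in the limma fit over all probe sets, with 2.46 ± 0.21 (SE), adjusted p = 0.000255. The representative one differed by −0.09 ± 0.14 (SE), adjusted p = 0.616.

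Genes next to the chaperones in the same pathways were read from 5 further lists. Among 5 of 6 tested heat shock targets of HSF1 that are no chaperones of the set, ZFAND2A, a proteasome adaptor, differed by 0.87 with miR-1 in KHOS and 0.17 in U-2OS, and IER5, a regulator of HSF1, by 0.86 and −0.15. By the mean of both lines, the lowest were UBB, a ubiquitin gene, at 0.04 and −0.03, and SERPINH1, the collagen chaperone HSP47, at 0.03 and 0.00. The list's median miR-1 minus miR-null difference was 0.62 in KHOS and −0.03 in U-2OS, against −0.05 in both lines over all genes.

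The other lists had medians near 0. The KHOS and U-2OS medians were 0.06 and −0.11 for 7 of 8 subunits of TRiC, the cytosolic chaperonin, −0.04 and 0.08 for 5 of 6 prefoldin subunits, 0.01 and −0.07 for all 14 further HSP70 and HSP90 co-chaperones, and −0.15 and −0.01 for 10 of 11 genes of the mitochondrial import motor and proteases. No gene of the 5 lists passed for miR-1, miR-null or vector contrasts or for the interactions. Between the lines, 0 TRiC subunits were higher in KHOS and 1 lower, 1 prefoldin subunit was higher and 1 lower, 2 co-chaperones were higher and 4 lower, 0 HSF1 targets were higher and 3 lower, and 3 mitochondrial genes were higher and 1 lower.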

How the data were processed

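The authors scanned Affymetrix U133 Plus 2.0 arrays and deposited log2 values; according to the series' design text, RMA was run in Qlucore 3.2. RMA compresses differences near the floor of the scale. The table held 54675 probe sets; 62 control sets were left out. An annotation table gave 41091 probe sets 1 symbol, 1801 several and 11721 none, and 41037 matched a RefSeq gene by Entrez identifier. A gene was represented by its probe set of highest mean, and tested where that mean was at least 5.11, the probe sets' median level, which left 12958 of 19775 genes.

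limma 3.58.1 in R 4.3.3 fitted treatment and line to all 6 arrays, with Benjamini-Hochberg adjustment over all genes and a threshold of 0.05. The interactions were fitted with line and miR-1, or line and vector. The p-values measure spread between pooled arrays, which includes differences between the lines in response, and 6 arrays limit the precision. Alternatives were quantile normalization, other filters, all probe sets, a trended prior variance and leaving out arrays.

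The members and lists were chosen with earlier results of these data known. Array values and statistics were given for members that passed any test, differed past 2-fold within a line, or were HSPA8, HSP90AB1, HSPD1, HSPE1 or HSF1, and for a few others by class; other lists were given as counts with at most 4 genes named.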

Additional observations from a re-analysis of the deposited data

How the results depend on the processing

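No member passed for miR-1 minus miR-null, or for its line difference, under any alternative that could be fitted. Within the lines, where differences have no test, the sign of the miR-1 minus miR-null difference changed for 1 member in KHOS and 6 in U-2OS after quantile normalization, and for 2 and 6 with the median over probe sets, DNAJB1 in U-2OS (−0.08) among them. For the vectors against control these numbers were 0 and 9, and 4 and 5. For miR-null minus control no member passed as reported, 1 passed (HSPA6) with only the miR-null and control arrays, and 0 to 3 passed when single arrays were left out. For both vectors against control the count was 0 as reported and 0 to 4 when single arrays were left out. Between the lines 25 members passed as reported, HSPA2 and HSPA4L included, and 17 to 27 when single arrays were left out, with 9 genes losing their call in at least 1 of these fits. Over all genes the line comparison passed 30.3% higher and 24.5% lower as reported, and 24.0% and 32.3% after quantile normalization. When single arrays were left out, 21.1% to 37.0% passed higher and 13.4% to 30.7% lower. With every probe set of 1 symbol, 12 members passed higher and 22 lower on at least 1 probe set. Of those probe sets, 19.7% passed higher and 15.7% lower. The cause of these changes was not tested. Over all genes, the vector comparison passed 3 higher and 0 lower as reported, 50 higher and 24 lower with the trended prior variance, 10 and 1 after quantile normalization, and 497 and 1781 without the KHOS control array. The miR-null comparison passed 0 as reported, 23 higher and 2 lower with the trended prior variance and 308 and 1038 without the KHOS control array. The line difference in the vector effect passed 259 higher and 37 lower as reported, 11 and 4 after quantile normalization, 761 and 102 with the trended prior variance, and 1257 and 274 when the U-2OS miR-null array was left out. Within U-2OS, the vector counts past 1.2-fold were 5 higher and 5 lower as reported and 9 and 3 after quantile normalization. The line difference of the miR-1 effect could not be fitted without a miR-1 array, nor that of the vector effect without a control array. An alternative with all probe sets, including those with several symbols, was added after the data were seen. No paired analysis was possible because the labels give no replicate numbers and each line has 1 array per condition; the line was a term of every fit.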

Other observations

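The distance between the lines was not the same in each condition. For HSPA6 the KHOS minus U-2OS difference was −0.51 with miR-1, −3.02 with miR-null and −3.21 in control cells. For DNAJB1 it was −1.24, −2.75 and −2.33 in those conditions, for BAG3 −0.13, −1.27 and −0.68, and for HSPH1 −0.16, −1.01 and −0.86. For these 4 genes the KHOS miR-1 array lay nearest to U-2OS. The median KHOS minus U-2OS difference over the 34 chaperones was −0.24 with miR-1, −0.54 with miR-null and −0.67 in control cells, against 0.04, 0.06 and −0.04 over all genes. The median absolute difference was 0.77, 1.02 and 0.87 for the chaperones, against 0.66, 0.57 and 0.44 over all genes. The absolute difference was smaller with miR-1 than in control cells for 18 of the 34 (52.9%), against 33.4% of all genes. Among the others, BAG1 had 0.04 in control cells and 0.93 with miR-1, and DNAJB6 0.92 and 1.66. These are values of single arrays with no test, and they hold the same arrays as the within-line differences.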
